A study of Mus musculus with 9 samples.

Results

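The libraries described here are the 3 control libraries, of 9 in the whole series, made from resting mammary cells that had switched on EYFP through K8CreERT2. They were chosen by their labels alone, and no measured value entered the choice. The mice were adult, nulliparous females of the genotype lsl-EYFP; K8CreERT2, with no floxed Lats1, Lats2 or Sox9 allele. They received 2 mg of tamoxifen by intraperitoneal injection on 5 days in a row, and mammary glands were taken 7 days after the last dose. EYFP+ cells alive by calcein blue were sorted by FACS, the methods describe no gate on other lineages for this sort, and the RNA was sequenced in bulk. What the Krt8 promoter drives sets the limits of the population: Cre acts in Krt8-positive cells, tamoxifen itself binds the estrogen receptor, and the mice of all 3 libraries had received it. Nothing in the labels says that each library came from a separate mouse, so the spread between them may in part be technical.

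The mammary duct is lined by an inner layer of luminal cells, which carry the simple keratins 8, 18 and 19, and an outer layer of contractile basal cells with keratins 5 and 14. Luminal cells are of 2 main kinds. Hormone-sensing cells carry the receptors for estrogen, progesterone and prolactin and pass the signal on through secreted factors such as amphiregulin. Luminal progenitors carry Kit and Elf5, lack most hormone receptors, and turn into milk-producing alveolar cells in pregnancy. The sort gathered both kinds in 1 tube, and in bulk RNA fewer cells of a kind and less RNA per cell cannot be told apart.

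Total counts were 47003587, 46719296 and 44167762 in control replicates 1, 2 and 3. Levels are given as CPM, the counts of a gene per 1000000 counts of its library, and, wherever different genes are compared, as CPM per kb of exon. At this depth 3 counts, taken as the upper limit that a count of 0 allows, equal 0.0638, 0.0642 and 0.0679 CPM, which covers counting error only. With at least 1 CPM in all 3 libraries, 13387 of 55450 genes were detected, or 24.1%. This share is the background for the detected members of every list below, and detection alone marks no list as high or low. Protein-coding genes took 96.3% ± 0.133 of the counts (SD, n = 3). With a single group there was no contrast to test, so differences between libraries are given as measured, with no p-value.

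Control replicate 3 stood apart from the other two. The mean reached 5 CPM for 11126 genes, and 413 of them differed at least 1.5-fold between replicates 1 and 2, or 3.71%. Between replicates 1 and 3 there were 1545 such genes (13.9%), and between replicates 2 and 3 there were 1306 (11.7%). Over the 11126 genes, 3.02% lay at least 1.5-fold above both other libraries in replicate 3 and 5.71% at least 1.5-fold below. In replicate 1 these shares were 0.485% and 1.61%, and in replicate 2 they were 0.692% and 0.324%. As a check for a library deposited under 2 labels, for which counting noise alone would give a chi-square per gene near 1, the values were 21.1, 90.4 and 80.3 for these pairs. The genes that differ most in replicate 3 are therefore given for each library.

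The promoters of 3 of the most abundant genes are shown because they stand for the population and its profile. The first is that of Krt8, the gene whose promoter drives Cre in these mice, then that of its partner Krt18, and then that of Fos. Each runs 5′ to 3′ from 250 bases before to 50 after the RefSeq start, and capitals mark matches on either strand to the TATA box TATAAA or the GC box GGGCGG.
Krt8 promoter, GRCm38 chr15:102004293-102004592, minus strand: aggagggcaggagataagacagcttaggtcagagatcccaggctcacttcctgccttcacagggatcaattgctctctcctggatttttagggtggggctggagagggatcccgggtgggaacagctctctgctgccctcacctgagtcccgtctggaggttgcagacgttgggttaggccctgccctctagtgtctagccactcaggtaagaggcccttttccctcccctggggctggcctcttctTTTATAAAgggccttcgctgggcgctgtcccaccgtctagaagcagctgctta
Krt18 promoter, GRCm38 chr15:102027966-102028265, plus strand: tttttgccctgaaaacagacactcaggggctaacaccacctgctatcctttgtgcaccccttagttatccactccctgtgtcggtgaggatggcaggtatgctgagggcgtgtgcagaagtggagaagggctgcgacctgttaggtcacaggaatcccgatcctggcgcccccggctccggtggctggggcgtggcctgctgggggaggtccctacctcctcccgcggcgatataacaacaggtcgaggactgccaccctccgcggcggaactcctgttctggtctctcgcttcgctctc
Fos promoter, GRCm38 chr12:85473640-85473939, plus strand: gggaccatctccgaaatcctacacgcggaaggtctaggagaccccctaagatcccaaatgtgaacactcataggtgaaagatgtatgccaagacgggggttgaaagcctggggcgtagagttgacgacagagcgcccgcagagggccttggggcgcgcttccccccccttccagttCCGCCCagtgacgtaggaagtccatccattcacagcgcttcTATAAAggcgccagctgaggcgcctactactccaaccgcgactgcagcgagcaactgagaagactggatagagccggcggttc
Krt8 held 2 overlapping matches to TATAAA, Fos held 1, and Krt18 held 0. The share of all 32851 promoter windows with a match was 13.6%. Fos also held 1 match to GGGCGG, against none in the windows of the keratins and 35.7% of all windows. The AP-1 element TGANTCA matched none of the windows shown and 7.81% of all windows. A match describes letters only.

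The luminal label held for the keratins. Krt18 (ENSMUSG00000023043, chr15:102028180-102032027, GRCm38), which pairs with keratin 8 in the filaments of simple epithelia, had 4397, 4671 and 4692 CPM in replicates 1 to 3, or 3192 ± 115 CPM per kb (SD, n = 3). Krt8 (ENSMUSG00000049382, chr15:101996698-102004482) had 3172, 3186 and 3930 CPM, or 1751 ± 221 CPM per kb. Krt18 lay above Krt8 per kb in 3 of 3 libraries. The processed pseudogene Krt8-ps had 774, 750 and 956 CPM. Only uniquely aligned reads were counted and these may come from Krt8, so Krt8 may be undercounted and its level is uncertain. All 10 members of the list of general luminal genes were detected, with a median of 667 CPM per kb against 6.91 over all detected genes. Krt19 reached 1897 ± 247 CPM per kb, the tight-junction gene Cldn4 1534 ± 153 and the adhesion gene Epcam 990 ± 85.1. Cldn3, the cadherin Cdh1 and Cldn7 followed at 345 ± 49.6, 272 ± 21.4 and 144 ± 9.23 CPM per kb. The lowest member was the apical mucin Muc1 at 56.1 ± 27.9 CPM per kb, with 172, 167 and 56.3 CPM, so that replicate 3 was the low one.

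The other 5 markers were present in every library. Prlr, the prolactin receptor (ENSMUSG00000005268, chr15:10177238-10349180), had 3214, 2877 and 3661 CPM, or 212 ± 25.6 CPM per kb. Pgr, the progesterone receptor (chr9:8899833-8968611), had 314, 394 and 546 CPM, or 48.9 ± 13.8 CPM per kb. Replicate 3 was the highest for both. Esr1, the estrogen receptor (chr10:4611593-5005614), had 156, 151 and 230 CPM, or 13.1 ± 3.24 CPM per kb. The progenitor marker Kit, a receptor tyrosine kinase (chr5:75574916-75656722), had 404, 413 and 226 CPM, or 39.0 ± 11.8 CPM per kb. Elf5, a transcription factor of the alveolar lineage (chr2:103411688-103450989), had 107, 120 and 43.9 CPM, or 15.4 ± 6.97 CPM per kb. Replicate 3 was thus the highest library for the 3 hormone receptors and the lowest for Kit and Elf5. Per kb, Prlr lay above Pgr, and Pgr above Esr1, in 3 of 3 libraries. The order of Pgr and Kit was not stable, since Kit was the higher of the pair in replicate 1 at 45.3 against 36.8 CPM per kb and Pgr in replicate 3 at 63.9 against 25.4. The same held for Esr1 and Elf5, with 11.4 against 18.3 CPM per kb in replicate 1 and 16.9 against 7.47 in replicate 3.

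**Figure D1:**
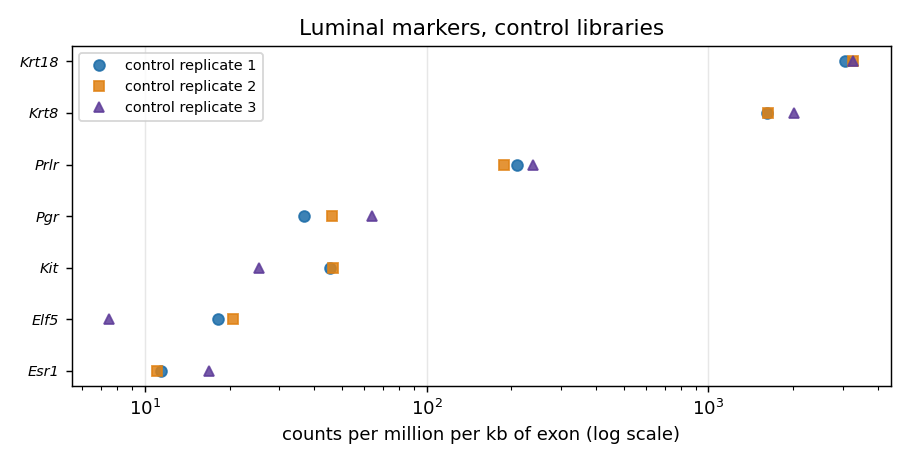
CPM per kb of exon (x axis, log scale) of the 7 luminal markers in the 3 control libraries, with a point for each library. Krt18 and Krt8 sit far to the right, and replicate 3 is the highest for Prlr, Pgr and Esr1 and the lowest for Kit and Elf5.

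The profile was led by an antioxidant enzyme, simple keratins, translation factors and immediate-early transcription factors. Gpx3, a secreted glutathione peroxidase, had the highest mean both per kb and in CPM, although in replicate 1 Fosb was above it in CPM. Gpx3 had 6747, 7445 and 13899 CPM, or 5165 ± 2175 CPM per kb, with replicate 3 at 2.06-fold the lowest library. After Gpx3 and Krt18, the order of the means per kb was Eef1a1, which carries tRNA to the ribosome (2088 ± 145), Fos (1949 ± 473), Krt19, Krt8 and Cldn4. The place of Krt8 is uncertain, since it may be undercounted as given above. Single libraries differed from this order. In replicate 3 Fos (2494), Krt19 (2181) and Krt8 (2007) were above Eef1a1 (1923). In replicates 1 and 2 Krt19 (1730 and 1780) was above Fos (1716 and 1638). Plet1, a lipid-anchored surface protein, reached 1365 ± 495 CPM per kb and was low in replicate 3, with 3429, 2967 and 1576 CPM. The translocation factor Eef2 stood at 1343 ± 103, the glutamine synthetase Glul at 1326 ± 324 and the chaperone Hsp90ab1 at 1240 ± 56.1 CPM per kb. Jund, Atf3 and Fosb, all of the AP-1 and ATF families, had 1136 ± 81.1, 1120 ± 180 and 1110 ± 133 CPM per kb. The sialomucin Cd164, the MHC class I light chain B2m, the ribosomal stalk gene Rplp1 and Epcam completed the protein-coding genes of the top 20, at 1096 ± 144, 1083 ± 74.3, 1075 ± 198 and 990 ± 85.1 CPM per kb. The remaining 2 of the 20 were processed pseudogenes, Tpt1-ps3 at 1429 ± 215 and Gm9794 at 1353 ± 156 CPM per kb. Their reads may come from near-identical expressed genes, so these values are uncertain. In CPM the top 10 also held Slc12a2, a chloride cotransporter, with 4742, 4656 and 8275 CPM. The 10 most abundant genes took 4.97%, 5.01% and 6.40% of the counts in replicates 1 to 3.

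**Figure D2:**
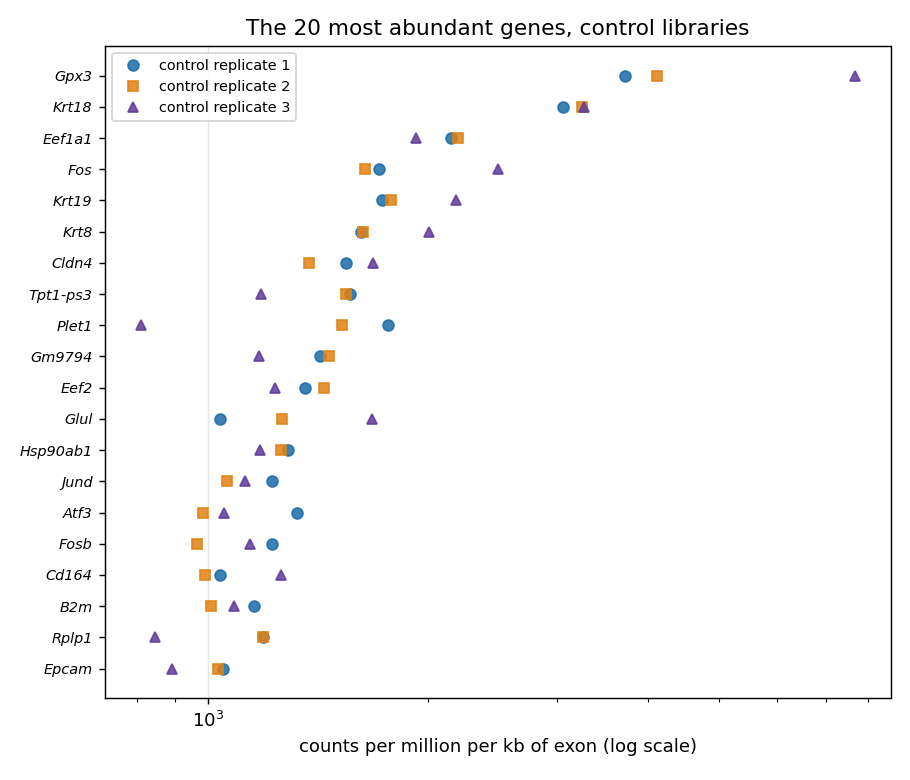
CPM per kb of exon (x axis, log scale) of the 20 genes with the highest mean, with a point for each control library. Gpx3 is at the top with replicate 3 well to the right, and Plet1 has replicate 3 to the left of the other libraries.

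Immediate-early genes, which cells switch on within minutes of a stimulus, were among the most abundant transcripts. All 16 members of the list were detected, with a median of 291 CPM per kb, and together they took 2.53%, 2.28% and 2.82% of the counts in replicates 1 to 3. Fosb had 7648, 6021 and 7116 CPM, and Fos had 4036, 3853 and 5866 CPM. Jun reached 870 ± 147 and Junb 629 ± 68.9 CPM per kb. The RNA-decay factor Zfp36 (318 ± 46.5), Ier3 (314 ± 45.9), Ier2 (267 ± 27.5), the zinc finger factor Egr1 (267 ± 38.2) and the cytokine-signalling inhibitor Socs3 (222 ± 45.9) followed. Nr4a1, Btg2 and the phosphatase Dusp1 were at 165 ± 26.1, 140 ± 15.8 and 131 ± 28.0 CPM per kb. The heat-shock genes Hspa1b and Hspa1a were the lowest of the list at 79.0 ± 20.6 and 27.9 ± 7.29 CPM per kb. No member lay 1.5-fold above or below both other libraries, except that with TMM scaling 1 member, Hspa1b, did so in replicate 3. Glands were digested to single cells and sorted before lysis, and whether any of this level arose in handling was not tested.

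Markers of other cell types were low. Of 12 basal and myoepithelial genes, 11 were detected, but their median was 2.83 CPM per kb and their sum 116, 137 and 114 CPM, against 18781, 18711 and 20125 CPM for the general luminal list. The smooth-muscle actin Acta2 had the highest mean per kb of exon at 7.38 ± 1.66 CPM per kb. Krt14 was above it in replicates 1 and 3, and Tagln in replicates 2 and 3. Per kb of the longest transcript the mean of Tagln (8.48) was above that of Acta2 (7.97). Krt14 had 16.7, 9.46 and 11.0 CPM and Krt5 had 10.2, 9.16 and 6.43 CPM. Actg2 was the lowest at 0.277 ± 0.134 CPM per kb. Trp63, the basal master regulator, had 6.85, 40.6 and 38.8 CPM, so that replicate 1 was the low one and it did not follow the keratins.

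Genes of blood and vessel cells were low, apart from Vwf. Of 12 immune genes 4 were detected, against 24.1% of all genes, so low refers here to the levels and not to the number detected. The immune list summed to 35.0, 23.1 and 19.3 CPM. Cd68 had the highest mean per kb at 5.92 ± 0.149 CPM per kb, although Cd74 and Lyz2 were above it in replicate 1 and Cd74 was also above it in mean CPM. Ptprc, which encodes the leukocyte marker CD45, had 0.745, 1.05 and 0.317 CPM, and Cd3e was at 0. Endothelial genes summed to 111, 95.1 and 109 CPM, of which Vwf alone gave 87.0 to 102 CPM. Pecam1, the other detected member, had 4.96, 5.05 and 8.49 CPM, with replicate 3 as the high library, and the vessel genes Cdh5 and Kdr had at most 1.36 and 0.792 CPM. Red-cell genes summed to at most 2.74 CPM, with Alas2 as the most abundant. Hba-a2 and Hbb-bt were at 0, and copies of the globin genes are near-identical and may be undercounted.

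Fat, muscle, fibroblast and skin genes were low as well, apart from Dcn and Sprr1a. Adipocyte genes summed to 9.30, 6.94 and 6.18 CPM, with Fabp4 as the most abundant and Cfd and Lep at 0. Muscle genes summed to 1.38, 2.42 and 2.94 CPM, with Mylpf as the most abundant. Fibroblast genes summed to 50.0, 83.5 and 177 CPM. Dcn, a matrix proteoglycan, made up most of this with 29.8, 62.1 and 148 CPM, while Lum had 0.0638, 0.107 and 0.408 CPM and Pdgfrb at most 0.557 CPM. Keratinocyte genes summed to 52.4, 78.0 and 225 CPM. Sprr1a, a cornified-envelope protein, gave 35.0, 55.5 and 187 CPM of this, at a mean of 115 ± 102 CPM per kb, and Dsg1a was at 0. The fibroblast and keratinocyte sums were thus highest in replicate 3, and their part in that library's other differences was not tested.

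**Figure D3:**
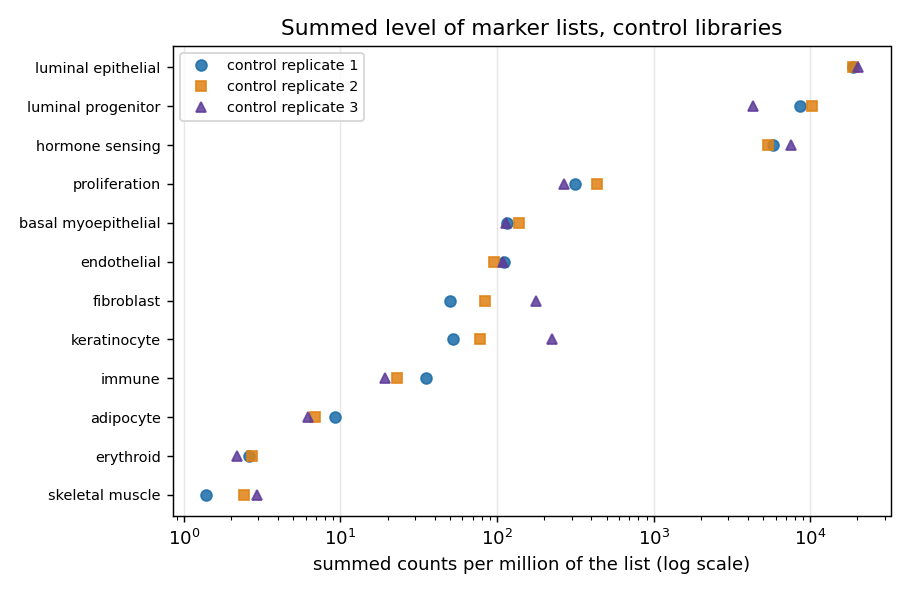
Summed CPM (x axis, log scale) of 12 marker lists, with a point for each control library. The 3 libraries lie together for the general luminal list, replicate 3 is low for the progenitor list and high for the hormone-sensing, fibroblast and keratinocyte lists, and the lists of other cell types lie far to the left of the luminal lists.

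Genes of both kinds of luminal cell were detected, and their summed levels differed between libraries. Of 12 hormone-sensing genes 11 were detected, with a median of 57.7 CPM per kb. Of 15 progenitor genes 14 were detected, with a median of 81.5 CPM per kb. The hormone-sensing list summed to 5767, 5366 and 7512 CPM and the progenitor list to 8533, 10271 and 4322 CPM. On the scale of summed CPM per kb, the ratio of the hormone-sensing to the progenitor list was 0.492, 0.371 and 1.35 in replicates 1 to 3, a mean of 0.737 ± 0.532 (SD, n = 3). Without replicate 3 the mean was 0.431, and per kb of the longest transcript it was 0.596 with all libraries. Such sums weigh abundant genes most. In CPM per kb, Trf had 762, 891 and 123 and Mfge8 465, 558 and 198 in the progenitor list. Areg had 319, 230 and 627 in the hormone-sensing list. The ratio without these genes was not computed.

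Replicate 3 was at least 1.5-fold below both other libraries for 10 of the 14 progenitor genes with a mean of at least 5 CPM, and above both for 0. Over all genes of that level, 5.71% lay below in replicate 3 and 3.02% above. Trf, which encodes the iron carrier transferrin, had the highest mean per kb of exon, with 2531, 2958 and 408 CPM, or 592 ± 411 CPM per kb. In replicate 3 it stood at 123 CPM per kb, below Ltf at 384 and Mfge8 at 198, and per kb of the longest transcript the mean of Mfge8 (820) was above that of Trf (765). Mfge8, a milk fat globule protein, had 2182, 2620 and 929 CPM. Lcn2, which binds bacterial siderophores, had 731, 724 and 294 CPM. Replicate 3 was the low library in each of the 3. Aldh1a3, a retinaldehyde dehydrogenase, had 467, 424 and 238 CPM, Cd14, a co-receptor for endotoxin, 265, 258 and 132 CPM, and Sox10 53.5, 67.1 and 28.0 CPM. Ltf, which encodes lactoferrin, did not share the pattern, with 841, 1498 and 1326 CPM and replicate 1 as the low library. Csn3, the kappa-casein gene, and Wfdc18 were above 100 CPM per kb in the mean, at 169 ± 42.6 and 121 ± 35.7. Itga2 was close in the 3 libraries at 35.8, 45.2 and 41.0 CPM. Rspo1, a Wnt agonist, had 5.68, 5.82 and 0.294 CPM.

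The hormone-sensing list was mixed. Of its 11 members with a mean of at least 5 CPM, replicate 3 was at least 1.5-fold above both other libraries for 3 and below both for 1. As given above, 3.02% of all genes of that level lay above and 5.71% below. Areg, the amphiregulin gene, was the most abundant per kb (392 ± 208) with 388, 280 and 762 CPM. Prom1, a membrane protein of hormone-sensing luminal cells, had 223, 359 and 740 CPM, and Greb1, an estrogen target, had 82.5, 79.0 and 313 CPM. Cited1, a coactivator, went the other way with 414, 327 and 209 CPM. Ly6a, which encodes Sca1, had 121, 211 and 311 CPM, and the pioneer factor Foxa1 459, 396 and 346 CPM. Tbx3 was nearly the same in the 3 libraries at 135, 133 and 132 CPM. Tnfsf11, which encodes RANKL, was the lowest member with 1.26, 0.128 and 0.0906 CPM.

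**Figure D4:**
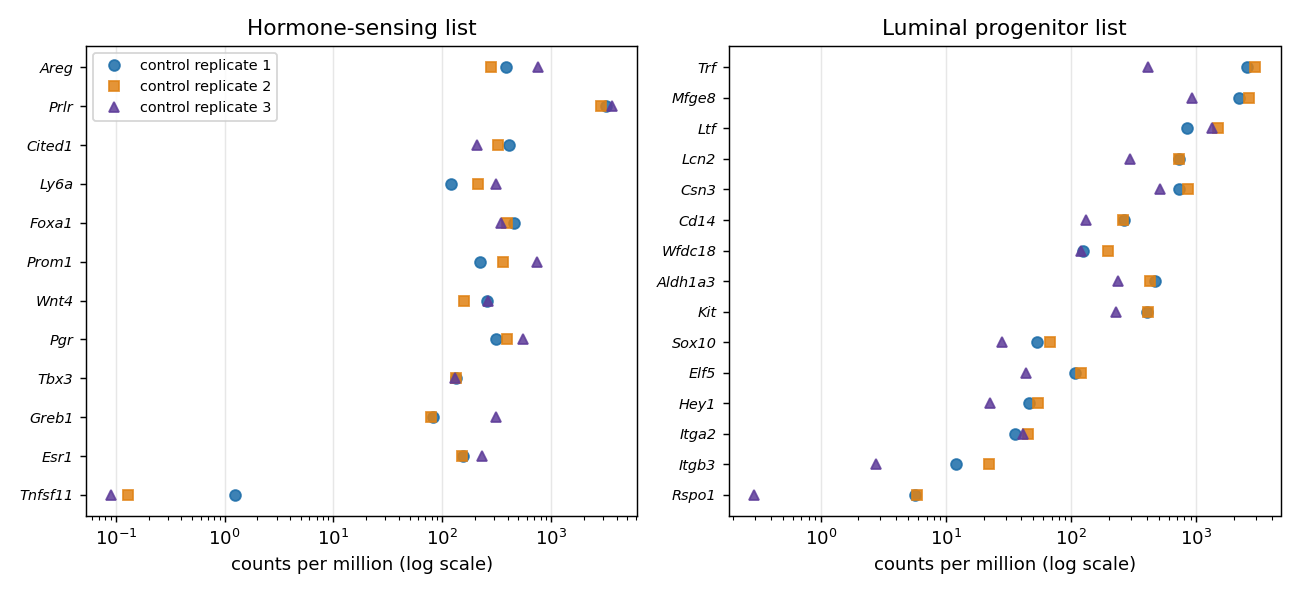
CPM (x axis, log scale) of the members of the hormone-sensing and luminal progenitor lists, ordered by mean CPM per kb, with a point for each control library. Replicate 3 lies to the left of the other libraries for most progenitor genes, and to the right for Areg, Prom1 and Greb1.

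Nuclear receptors were led by Pgr. Of 16 members 13 were detected, with a median of 6.70 CPM per kb. After Pgr, the highest means per kb of exon were those of the retinoid receptors Rarg and Rxra at 26.2 ± 2.41 and 19.5 ± 1.30. The thyroid receptor Thra followed at 16.8 ± 1.51, although in replicate 3 Esr1 (16.9) was above Thra (15.1). Per kb of the longest transcript, Thra (31.6) and Esr1 (28.3) were above Rxra (21.7). The glucocorticoid receptor Nr3c1 was steady with 52.1, 48.4 and 42.1 CPM. Esr2, the second estrogen receptor, was at 0 in all 3 libraries. The vitamin D receptor Vdr was low in replicate 3, with 83.3, 88.5 and 50.3 CPM.

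Among receptors for peptide hormones and cytokines, 13 of 15 were detected and Prlr stood well above the rest. Il6st, the shared signalling chain of the IL-6 family, had 52.7 ± 9.84 CPM per kb, and the LIF receptor Lifr 22.7 ± 3.40. The growth hormone receptor Ghr had 25.9, 41.2 and 195 CPM, and Tnfrsf11a, the receptor for RANKL, had 9.72, 7.58 and 1.99 CPM, so that replicate 3 was the high library for the former and the low one for the latter. Calcr was at 0. Of 16 receptor tyrosine kinases 13 were detected. Epha2 (95.9 ± 12.3 CPM per kb), Erbb3 (70.3 ± 9.57) and Fgfr2 (62.9 ± 3.52) had the highest means per kb of exon. Per kb of the longest transcript the order was Fgfr2 (147), Epha2 (115), Fgfr1 (80.2) and Erbb3 (70.3). Fgfr4 was the lowest at 0.0164 ± 0.0093 CPM per kb. Of the 13 kinases with a mean of at least 5 CPM, replicate 3 lay at least 1.5-fold below both other libraries for 4. These were Met, Egfr, Erbb4 and Kit, the last of which is already counted in the progenitor list. It lay above both for 2, which were Fgfr3 and Axl. Across all genes of that level, 5.71% lay below both in replicate 3 and 3.02% above. Egfr, a receptor for amphiregulin, had 59.6, 51.7 and 24.7 CPM.

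Genes known to respond to estrogen or progesterone did not move as 1 group between libraries. The list shares Areg, Wnt4, Pgr, Greb1 and Tnfsf11 with the hormone-sensing list. Of 10 members 9 were detected. For the 8 with a mean of at least 5 CPM, replicate 3 was above both others for 3 and below both for 2. Among all genes of that level the shares were 3.02% above and 5.71% below. Stc2, a secreted glycoprotein, had 263, 177 and 983 CPM. Calca, the calcitonin gene, had 136, 99.7 and 5.37 CPM, so that replicate 3 was the high library for Stc2 and the low one for Calca. Ccnd1, the cyclin of the G1 phase, had 399, 371 and 226 CPM, and Wnt4 had 258, 157 and 264 CPM. Xbp1 was close in the 3 libraries at 154, 142 and 140 CPM.

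Milk genes split into a part that was abundant at rest and a part that was nearly silent. Of 16 members 8 were detected. The list summed to 6311, 7342 and 2185 CPM, most of it from Trf and Mfge8, which the progenitor list also holds. Btn1a1, the butyrophilin of the milk fat globule, had 623, 592 and 190 CPM, or 114 ± 58.6 CPM per kb. Xdh, its partner in that membrane, had 134, 156 and 73.1 CPM. Lalba, which encodes alpha-lactalbumin, had 8.17, 15.9 and 1.92 CPM. The casein genes differed widely. Csn2 was low with 1.17, 3.47 and 0 CPM, as was Csn1s1 with 3.55, 12.4 and 0.0453 CPM. The kappa-casein gene Csn3, which the progenitor list also holds, was abundant with 725, 863 and 512 CPM. Wap had 0.0425, 0 and 0 CPM, under the limit of 3 counts in every library, and Glycam1 was at 0. Of the 9 milk genes with a mean of at least 5 CPM, replicate 3 lay at least 1.5-fold below both others for 6 and above both for 0. Among the 6 is Csn1s1, which reached that mean only through replicate 2. The shares of all genes of that level in replicate 3 were 5.71% below and 3.02% above.

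Defence genes were detected for 13 of 24 members. Wfdc2, an epididymal secretory protein of the whey acidic protein family, had the highest mean per kb at 417 ± 88.8, with 375, 476 and 577 CPM, although in replicate 2 Ltf was above it at 434 against 417 CPM per kb. Ltf (354 ± 98.8), Lcn2 (222 ± 95.4), Cd14 (126 ± 43.4) and Wfdc18 (121 ± 35.7) were also above 100 CPM per kb, and the progenitor list holds all 4 of these. C3, the central complement component, had 408, 448 and 44.2 CPM, and the beta-defensin Defb1 had 125, 58.7 and 20.1 CPM. The neutrophil chemokine Cxcl1 had 122, 147 and 158 CPM. Of the 13 members at 5 CPM, replicate 3 lay below both others for 5 and above both for 0. For all genes of that level these shares were 5.71% and 3.02%. Camp and Saa2 were at 0.

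Transcription factors were detected for 44 of 48 members. The list leaves out the immediate-early factors described above, several of which were higher. Its 10 highest members by mean per kb of exon were Klf4 (260 ± 21.3), Elf3 (174 ± 36.4), Hes1 (124 ± 19.7), Foxa1 (120 ± 17.0), Cebpb (117 ± 33.3), Bhlhe40 (116 ± 6.79), Sox9 (96.4 ± 6.35), Stat3 (85.1 ± 14.6), Gata3 (60.5 ± 2.82) and Cebpd (49.1 ± 10.2). The last place was not stable, since Trps1 (48.9 ± 4.91) was above Cebpd in replicates 1 and 3. Per kb of the longest transcript, Xbp1 (68.3), Trps1 (66.4), Runx1 (62.7) and Klf5 (61.0) were above Cebpd (49.1). Gata3, which maintains luminal fate, had 228, 250 and 244 CPM, and Sox9 had 428, 377 and 392 CPM, so neither set replicate 3 apart. Runx1, a luminal regulator, was also close at 383, 371 and 349 CPM. Of the 39 members at 5 CPM or more, replicate 3 lay below both others for 7. Among the 7 were Cebpb (195, 213 and 118 CPM) and, already counted in the progenitor list, Sox10, Elf5 and Hey1. Replicate 3 lay above both others for 3. These 3 were Stat5a with 95.8, 103 and 219 CPM, Stat5b with 79.4, 76.7 and 120 CPM, and Myb with 75.4, 105 and 177 CPM. By comparison, 5.71% of all genes of that level lay below both others in replicate 3 and 3.02% above. Stat5a and Stat3 overlap on opposite strands, and reads from the overlap may not be separable. Twist1 had the lowest mean at 0.036 ± 0.0215 CPM per kb, and Snai2 and Zeb1 were below 1 CPM in every library.

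Members of the Hippo pathway, which the wider study perturbs, were present at widely different levels. Of 18 members 17 were detected, and their median fold between the highest and the lowest library was 1.21, as it was over all genes with a mean of at least 5 CPM. Replicate 3 lay at least 1.5-fold above or below both others for 0 of the 17, against 3.02% and 5.71% of all genes of that level, so that the list did not stand out from the background. Lats1 had 104, 112 and 108 CPM, and Lats2 had 19.1, 16.3 and 22.2 CPM. Yap1 had 160, 174 and 184 CPM and Wwtr1, which encodes TAZ, had 183, 181 and 131 CPM. Among targets of YAP and TAZ, Ccn1 was high at 415 ± 63.2 CPM per kb and Ccn2 low at 7.34 ± 1.46. Ankrd1 was the lowest member at 0.154 ± 0.0316 CPM per kb.

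Proliferation genes were low, and replicate 2 was the highest library for 15 of the 15 detected members, or for 14 with TMM scaling. Replicate 2 was the highest for 32.7% of all detected genes, or for 25.8% with TMM scaling. The list had a median of 1.81 CPM per kb and summed to 315, 437 and 266 CPM. Mki67, which marks cycling cells, had 7.51, 16.9 and 6.63 CPM, and Top2a, the topoisomerase of dividing cells, 12.6, 32.1 and 12.4 CPM. The replication licensing genes Mcm5 and Mcm3 had 13.4, 28.2 and 12.9 CPM and 14.7, 24.8 and 11.0 CPM. Of the 11 members with a mean of at least 5 CPM, replicate 2 lay at least 1.5-fold above both others for 5, against 0.692% of all genes of that level, and 1 of the 5, Rrm2 with 2.55, 8.93 and 3.58 CPM, reached that mean only through replicate 2. The most abundant was Pcna, the replication clamp, with 97.2, 97.6 and 70.5 CPM, for which replicates 1 and 2 were alike. The lowest was Ccnb1. Interferon-response genes summed to 208, 235 and 284 CPM. Their highest member was Bst2, with 77.7, 88.5 and 147 CPM and replicate 3 as the high library, or 115 ± 41.1 CPM per kb, and their lowest was Mx1 at 0.390 ± 0.329.

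The list of reference genes summed to 8586, 8468 and 8342 CPM. Actb reached 623 ± 92.0 CPM per kb, and Tbp, the lowest member per kb, had 13.1, 13.4 and 13.1 CPM. Gapdh and Ppia had only 3.12 ± 0.667 and 3.24 ± 0.723 CPM per kb. Only uniquely aligned reads were counted, so genes with near-identical processed copies can be undercounted, and these values are uncertain.

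Among the 11126 genes with a mean of at least 5 CPM, 126 differed at least 4-fold between the highest and the lowest library, or 1.13%, against a median fold of 1.21 over all of them. The highest library was replicate 1 for 22 of the 126, replicate 2 for 39 and replicate 3 for 65. The lowest was replicate 1 for 67, replicate 2 for 8 and replicate 3 for 51. Several of the 126 reached a mean of 5 CPM only through their highest library, such as Aoc1 with 0.447, 2.31 and 52.0 CPM, so these numbers describe the genes that passed and no order of the libraries is read from them. The number was 16 without replicate 3, 61 without replicate 1 and 103 without replicate 2. The biological coefficient of variation, the spread beyond counting error, was 0.209 as the median of the edgeR trend with all 3 libraries and 0.133 without replicate 3.

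The 25 protein-coding genes with the largest folds fell into 3 patterns. Some were lowest in replicate 3. Csn1s1 had only 2 counts there, so its fold was 183 with those counts set to 3, and 274 on the counts as they stand, with a 95% counting interval of 75.6 to 2269 for the latter. Fbn2, a microfibril protein, had 35.7, 30.1 and 0.226 CPM, and the lipase Lipm had 21.4 CPM in replicate 2 against 0.204 CPM in replicate 3. Calca, Nmu (47.5, 106 and 8.40 CPM), which encodes neuromedin U, and C3 were of the same kind. So were Spock1, Fgf14, Slc13a2, Slc16a5 and Kcnh1, with Kcnh1 at 79.8, 20.5 and 5.07 CPM.

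Others were highest in replicate 3. Aoc1, a diamine oxidase, had 0.447, 2.31 and 52.0 CPM, and Thbs2, a matricellular protein, 0.979, 3.36 and 69.2 CPM. The glucose transporter Slc2a3 had 0.787, 0.942 and 46.0 CPM, and the chemokine Cxcl12 5.08, 30.6 and 154 CPM. Ctse, an intracellular protease, had 17.1, 6.96 and 109 CPM, and Ctns, the lysosomal cystine exporter, 19.8, 22.0 and 193 CPM. Muc13, a membrane mucin, had 25.6, 85.4 and 301 CPM. Tmprss11e, Col4a4, Kcnma1, Txk, Dnah11 and Dcdc2a were also highest in replicate 3, at 13.2 to 120 CPM there. Txk had 1.00, 7.86 and 13.2 CPM, so its fold came mainly from a low replicate 1. In the third pattern, Sult5a1, a sulfotransferase, was nearly absent from replicate 2 alone, with 15.7, 0.128 and 4.69 CPM. The predicted gene Gm43305, which the choice of protein-coding genes with established symbols leaves out and which was picked after its values were seen, had a larger fold than any of the 25, with 112, 0.0856 and 440 CPM.

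**Figure D5:**
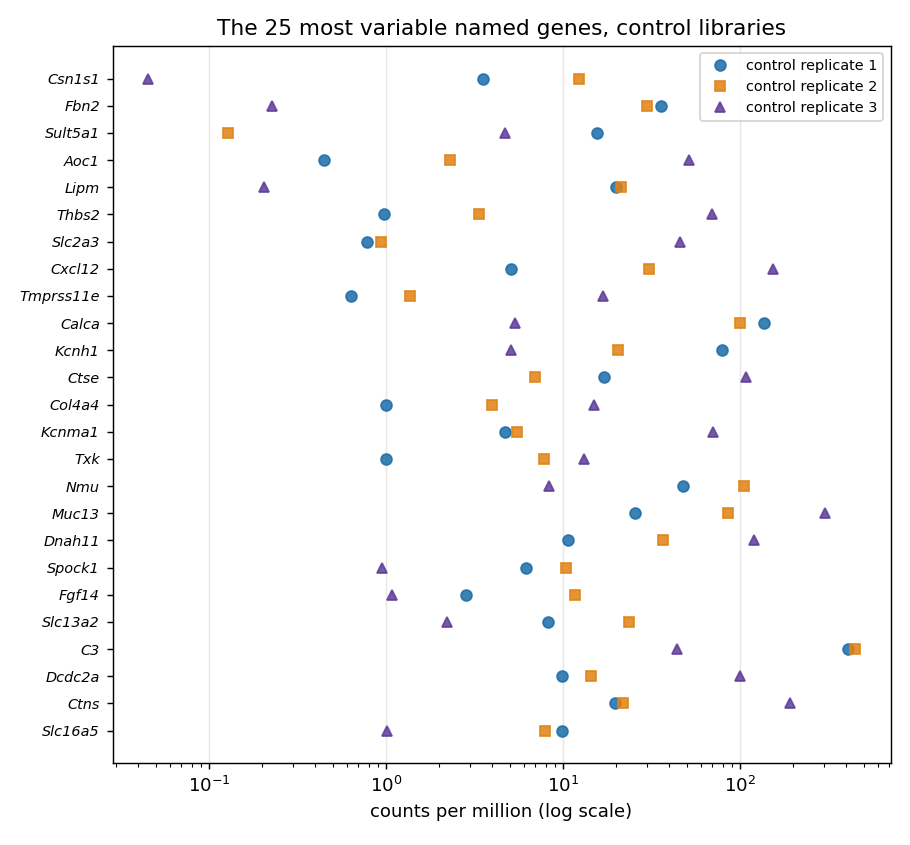
CPM (x axis, log scale) of the 25 named protein-coding genes with the largest fold between libraries, largest at the top, with a point for each control library. Replicate 3 is at an end of the range for all but Sult5a1.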

How the data were processed

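The authors aligned the reads with STAR 2.6.0c to mm10, counted uniquely aligned proper pairs on Ensembl genes with featureCounts of Subread 1.6.2, left out mitochondrial genes, and deposited raw counts per gene and library, with no normalization. The methods add that pairs lay on the same strand, while the kit does not mark strand, so whether counting was by strand was not settled here and reads of overlapping genes may not be separable. From these counts, CPM were computed on the total of all 55450 genes. Of these, 55190 matched GENCODE M21 (GRCm38), which gave names, positions and the union of exons used for CPM per kb. Promoters came from RefSeq (GRCm38.p6). edgeR 4.0.16 and DESeq2 1.42.0 in R 4.3.3 served for scaling factors and, in edgeR, the dispersion of an intercept-only design.

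Groups were taken from the labels, and the 6 libraries of the deletion groups were not compared. Members and lists were chosen with earlier results of these data known. Named were the 20 genes highest per kb, the 10 highest in CPM, list members of at least 100 CPM per kb, the highest and lowest members and members at 0 of lists, the 7 markers, the 10 highest transcription factors, and the 25 protein-coding genes with established symbols and the largest fold among those with a mean of at least 5 CPM. Other genes named as examples, the 1.5-fold rule for a library that stands apart, and the lists of cilium, plasma protein, mucin and glutathione peroxidase genes were chosen after the values were seen. Values of a few list members are left out of the text. Values under 3 counts were set to 3 counts for folds unless stated. The counting interval of a fold is an exact 95% binomial one. Scripts were tested on simulated data: the fold rule found the genes that had been raised in 1 library, and the dispersion was recovered where all genes shared it but came out too high where a set of genes had been raised. How far this holds for the coefficient of variation given here was not tested.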

Additional observations from a re-analysis of the deposited data

How the results depend on the processing

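No paired analysis was possible because only 1 group was described and no groups were compared. The number of detected genes stayed within 1.5 times the 13387 reported at 0.5 or 5 CPM, at 1 CPM per kb, with TMM scaling and with any 1 library left out. The share of counts in the 10 most abundant genes was 7.53% when computed per kb of exon. The median level of detected genes was 9.17 CPM per kb with the longest transcript as length and 27.3 CPM with no division by length. The number of variable genes was 1632 with no more than 10 counts in 1 library required, 341 at a mean of 1 CPM, 229 at 3-fold and 43 at 8-fold, and 16 to 103 with 1 library left out, with 61 without replicate 1 and 16 without replicate 3. It was 126 with TMM and with DESeq2 size factors. At a mean of 1 CPM, replicate 3 was the highest library for 178, a number that the filter on the mean helps to set. The median trended biological coefficient of variation was 0.387 with no filter and 0.133 to 0.249 with 1 library left out. With TMM scaling, replicate 3 lay above both others for 3.33% and below both for 5.37% of genes. On that scale replicate 3 lay above both others for 4 hormone-sensing genes and 4 transcription factors, against 3 of each in CPM, and replicate 2 for 4 proliferation genes, against 5 in CPM. Levels per kb depend on the annotated length: Esr1 was 28.3 and Prlr 328 CPM per kb of the longest transcript. With 3 libraries, 1 of which stands apart, the SD is itself imprecise, and depth limits a fold where 1 library holds few counts, as for Csn1s1.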

Other observations

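Several gene groups that had not been listed at the start differed in replicate 3, and they were chosen after their values were seen. The 10 plasma and acute-phase genes summed to 2516, 2005 and 466 CPM. The fibrinogen chains Fgg and Fgb had 923, 498 and 108 CPM and 623, 582 and 91.8 CPM, and haptoglobin, Hp, had 311, 283 and 124 CPM. Mucins and mucus proteins summed to 6071, 8353 and 1730 CPM. Fcgbp had 3640, 4585 and 837 CPM and Dmbt1 1892, 3084 and 394 CPM, while Muc13 was highest in replicate 3. Genes of the motile cilium were highest in replicate 3 and summed to 81.1, 160 and 372 CPM. Most members reached a mean of 5 CPM only through replicate 3, if at all, so no count is given. Foxj1, the master regulator of motile cilia, had 48.5, 75.5 and 138 CPM, and the dynein gene Dnah11 10.7, 36.8 and 120 CPM. Dnah5, another dynein gene, had at most 0.0226 CPM.

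Gpx1, a cytosolic glutathione peroxidase, had 285, 624 and 709 CPM, the same order of libraries as Gpx3. Gpx4 had 57.5, 51.1 and 56.1 CPM, so not all members of the family shared that order. The Y-linked genes Ddx3y, Uty, Kdm5d and Eif2s3y were at 0 in all 3 libraries.

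Some of the 126 variable genes were neighbours that start within 200 kb of each other, and whether this is more than for other genes was not tested. They included Fgg and Fgb on chromosome 3, Ctns and Shpk on chromosome 11, Krt4, Krt79 and Krt78 on chromosome 15, and Aoc1 with the predicted genes Gm17834 and Gm7932 on chromosome 6. Processed pseudogenes took 2.36%, 2.39% and 2.16% of the counts. Tpt1-ps3 had 811, 801 and 613 CPM against 222, 228 and 172 CPM for its parent Tpt1, and Krt8-ps had 774, 750 and 956 CPM.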
